A study of Bos taurus with 14 samples.

Results

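The genes described here are the 167 bovine genes, of 27607 in the count table (0.605%), whose RNA was abundant both before and after embryonic genome activation (EGA). Abundance was measured in CPM, the count of a gene divided by the total of its library and multiplied by 1e6. A gene was taken when it reached 150 CPM in each of 14 RNA-seq libraries. That minimum was met by 183 genes, of which 15 lie in the block of consecutive identifiers that holds the mitochondrial genome and 1 further gene belongs to the energy-related genes the study singled out, and these 16 were left out. No gene listed under a histone term met the minimum. The levels themselves chose the genes, so the levels and their sums are a description without a test.

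An oocyte stores RNA made during its growth, and the first cleavages run on that store. Part of it is translated, part is degraded, and transcription from the embryo's own genome then takes over, which in cattle happens around the stages sampled here. An abundant transcript can therefore be seen on both days because the stored copies last, because new copies replace them, or both, and read counts of pooled embryos cannot tell these apart.

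All embryos were produced in vitro from abattoir oocytes and the semen of 1 bull. The 5 Day-2 libraries held 4-cell embryos, and the 9 Day-4 libraries held 16-cell embryos, with 5 embryos in every pool. On Day 2 embryos either stayed in culture (IVC, 3 libraries) or were placed in the oviducts of Holstein-Friesian cows after a first calving that were not lactating (DRY, 3 libraries) or were lactating (LACT, 3 libraries). DRY and LACT embryos therefore spent the first 2 days in vitro as well, and a pool from the oviduct comes from 1 cow. In pooled embryos, fewer cells of a kind and less RNA per cell cannot be told apart, and every value is a share of the RNA that was sequenced.

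Libraries held between 22711367 and 40357379 counted reads and 3 counts stood for 0.0743 to 0.132 CPM, far below the minimum. In each Day-4 group 1 library was nearly the average of the rest: IVC 1, DRY 3 and LACT 3 held the middle value for 97.4% to 98.5% of the genes with a mean of at least 5 CPM in their group, against 0.532% to 1.45% for the other libraries. A library at the mean adds no independent spread. Tests were therefore made on 11 libraries (6 on Day 4), and results with all 14 are given beside them. The fifth Day-2 library (Day2 5) also stood apart after TMM scaling (edgeR's correction for differences in RNA composition). Its level then differed from the other Day-2 libraries by a median of 0.45 to 0.67 on the log2 scale over the 167 genes, against 0.23 to 0.35 among the others. Its TMM factor was 1.552, against 1.005 to 1.185 in the other Day-2 libraries. Before that scaling the 167 genes took 11.9% of its counts, within the range of the other Day-2 libraries. Gene symbols, protein sequences and marker genes of the oocyte and of the oviduct were not analysed here, since no table used here pairs the Ensembl identifiers with symbols. Functions are given as the terms under which the study's functional analysis lists an identifier. Those lists were drawn from genes the study called on these same samples, so they are not independent evidence of a direction.

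Leaving out the same block and lists, 1017 genes reached 150 CPM in all 5 Day-2 libraries and 440 in all 9 Day-4 libraries, so the 167 shared genes were 16.4% of the first set and 38.0% of the second. These counts are over unequal numbers of libraries and on totals that include the mitochondrial block, which took more of the counts on Day 4. With the block left out of the totals the shared set grew from 167 to 370 genes. The lowest library of a gene was a Day-2 library for 59 genes and a Day-4 library for 108, namely IVC for 35, DRY for 40 and LACT for 33. Just inside the minimum, the lowest CPM were 150.4, 150.6 and 150.9, in DRY 1, IVC 2 and Day2 2, and just outside they were 148.9, 148.5 and 148.4, in IVC 2, LACT 1 and Day2 4. The border thus runs through Day-2 and Day-4 libraries alike. No gene reached 1000 CPM in every library, and 12 reached 500.

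As a whole the 167 genes took a smaller share of the counts on Day 4, but not once mitochondrial reads were set aside. Their share of all counts lay between 11.6% and 12.4% in the 5 Day-2 libraries. It was 8.60%, 8.44% and 8.72% in IVC, 7.58%, 8.84% and 8.20% in DRY, and 8.01%, 8.55% and 8.24% in LACT. Day-2 and Day-4 libraries did not overlap, and the 3 Day-4 groups did. The mitochondrial block moved the other way, from 11.3% to 20.2% of the counts on Day 2 to 42.1% to 49.2% on Day 4. Of the counts outside that block, the 167 genes took 13.4% to 14.9% on Day 2 and 14.8% to 16.0% on Day 4. The ranges overlap only through LACT 2 and LACT 3, at 14.77% and 14.80%. The other Day-4 libraries lay above every Day-2 library, of which the highest was Day2 1 at 14.89%.

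**Figure D1:**
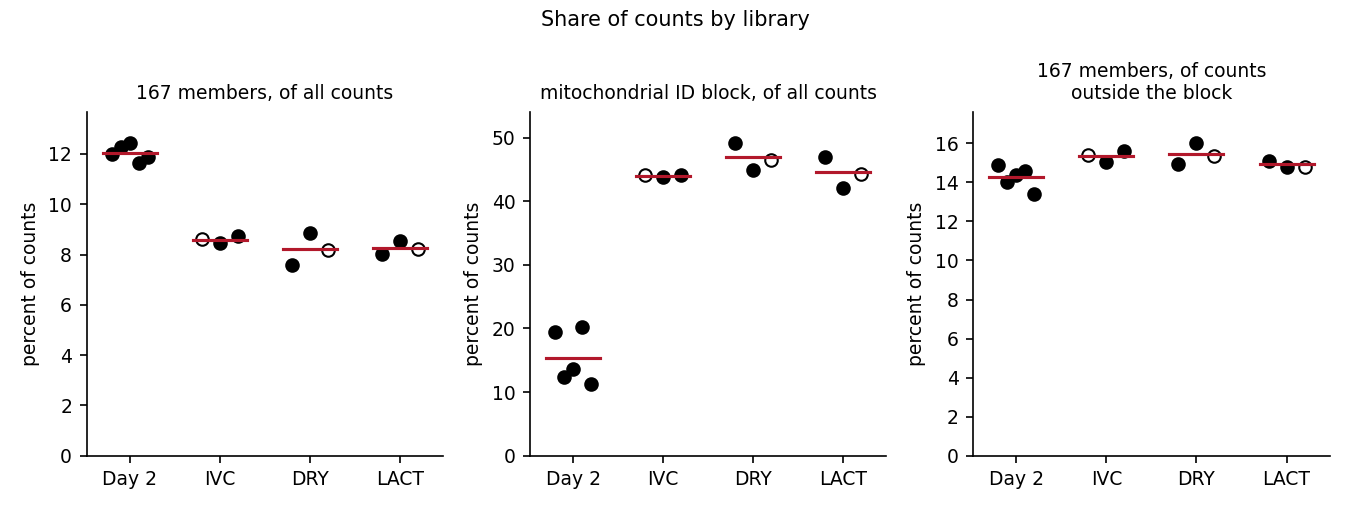
Percent of counts by library for the 167 genes (left), the mitochondrial identifier block (middle) and the 167 genes among counts outside the block (right). Filled points are libraries of the fit, open points the 3 libraries at the mean of their group, and lines the mean of the filled points. The left panel falls from at least 11.6% to at most 8.84%. In the right panel values lie between 13.4% and 16.0%, and most Day-4 libraries lie above every Day-2 library.

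The 5 genes with the highest mean CPM over the 11 tested libraries held 22.7% to 24.9% of the counts of the whole set in the Day-2 libraries. In the Day-4 libraries the same 5 held 10.9% to 12.8%. Most of the 5 ranked high through their Day-2 levels, so a smaller share on Day 4 follows from the choice. Whether counts were spread more evenly on Day 4 was not tested. Highest on Day 2 was a gene listed under chromatin regulator, with 7649, 7467, 7767, 8807 and 4909 CPM after TMM in the Day-2 libraries 1 to 5. Values of libraries are given in the order of their replicate numbers throughout. It had 1000, 790 and 1332 in IVC, 996, 2035 and 1423 in DRY, and 1567, 1772 and 1688 in LACT. Every Day-4 library lay below every Day-2 library, by a log2 fold change of -2.39 ± 0.25 (SE). The next 3 on Day 2 fell as well, and the only 1 of the 5 that rose was the highest gene of Day 4, described below.

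Staying above the minimum did not mean keeping a rank. Between any 2 Day-2 libraries, Spearman's rho of CPM over the 167 genes was 0.82 to 0.93 (10 pairs). Between any 2 of the 6 Day-4 libraries it was 0.66 to 0.82 (15 pairs). For Day-2 libraries set against Day-4 libraries it was 0.03 to 0.29 (30 pairs), and 4 genes were among both the 20 highest of Day 2 and the 20 highest of Day 4. These correlations are descriptions over genes chosen by their level, and the libraries of a pair share gene lengths and the minimum. Within Day 2 the coefficient of variation of CPM had a median of 15.4% over the 167 genes and reached 52.8%.

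**Figure D2:**
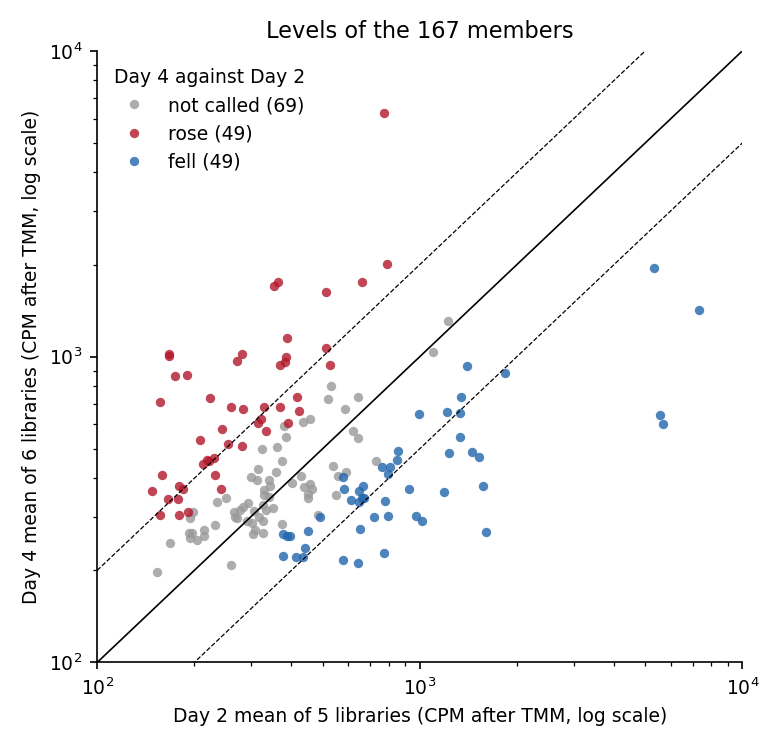
Mean CPM after TMM of the 167 genes on Day 2 (5 libraries, horizontal) and Day 4 (6 libraries, vertical), both on log scales, coloured by the test of Day 4 against Day 2. The solid line marks equal levels and the dashed lines a factor of 2. Genes that fell spread to the right, up to 7320 CPM on Day 2, and genes that rose start lower, at a median of 260 CPM. The minimum in every library shapes this contrast.

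The comparison of Day 4 with Day 2 asks which abundant transcripts changed while the embryo's genome was activated. Of the 167 genes, 49 rose and 49 fell at a false discovery rate (FDR) under 0.05, and 69 did not pass the test. All 167 passed the filter on low counts. The background was 53.7% of the 13908 genes tested, with 24.5% higher and 29.2% lower on Day 4. The share of 58.7% among the 167 genes is close to that, and nothing is read from it, since the same counts chose the genes. With all 14 libraries 58 rose and 56 fell, against a background of 61.9% (29.6% higher and 32.3% lower). The p-values measure the spread between pools of embryos.

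The balance of rises and falls depended on the scaling. The median log2 fold change of the 167 genes was 0.14 and that of all genes tested -0.18. With library totals in place of TMM these medians were -0.22 and -0.55, and 37 genes rose and 66 fell. With DESeq2's size factors they were 0.30 and -0.02, and 65 rose and 43 fell. With at least 10 counts required in every library, 70 rose and 39 fell. Calls over all genes tested were 7648 of 13908 with library totals and 7487 of 13908 with DESeq2's size factors. With at least 10 counts in every library they were 4209 of 6647. Relative to the median of all genes, that of the 167 genes was 0.32 higher with TMM. Another scaling of the same genes shifts both medians together, so this distance barely moves by construction (0.33 with library totals). It was 0.15 with all 14 libraries and 0.47 with at least 10 counts in every library. The minimum limits how far a listed gene could fall, so this distance is a description as well. Changes below are after TMM.

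Most of the 167 genes changed by less than a factor of 2. Their median absolute log2 fold change was 0.76, beside 2.36 over all genes tested, and 34.1% of them lay beyond a factor of 2, beside 76.9%. The minimum in every library bounds these changes, so nothing particular to the set is read from them. The 95% interval of the fold change lay wholly within a factor of 2 for 54 of the 167 genes (32.3%), with a background of 2.58%. It lay wholly beyond a factor of 2 for 23 genes, 12 higher and 11 lower on Day 4, with a background of 39.4%. Abundant genes also had the narrower intervals, with a median half-width of 0.51 over the 167 genes and 2.01 over all genes. Of the 69 genes that did not pass the test, 53 had an interval inside a factor of 2, so that for these a larger change was outside the interval. For the other 16 the interval reached past that factor, and a change of that size could not be told from none. With all 14 libraries 73 genes had an interval inside a factor of 2, with a background of 4.7%.

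**Figure D3:**
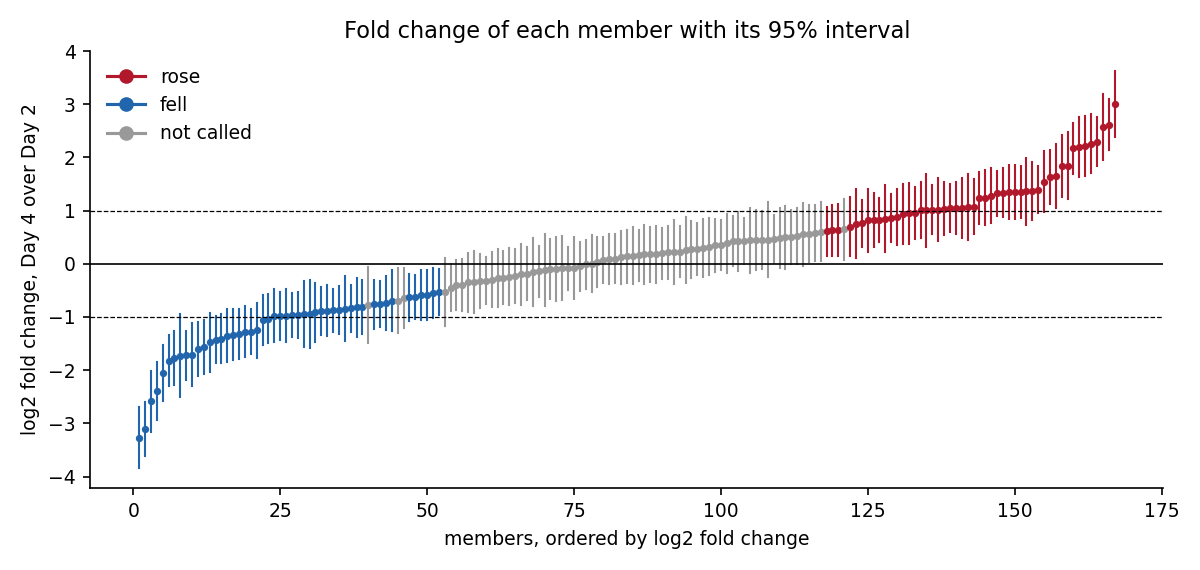
Log2 fold change of Day 4 over Day 2 for each of the 167 genes, ordered by size, with 95% intervals from the fit on 11 libraries. Dashed lines mark a factor of 2. The values run from -3.27 to 3.01, and the grey genes between the coloured ends did not pass the test.

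In the libraries themselves, 70 of the 167 genes did not overlap between the 5 Day-2 and the 9 Day-4 libraries after TMM, 36 of them higher on Day 4 and 34 lower. The background was 38.4% of the genes tested, with 19.7% higher and 18.6% lower. Genes that rose started from a median of 260 CPM and reached 674, whereas genes that fell went from 794 to 364. The minimum shapes this contrast, since a gene that rose could start near it and a gene that fell could not. Genes that did not pass the test were at 330 and 347. A rise of at least 4-fold was estimated for 8 genes and a fall of at least 4-fold for 5.

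The largest rise was that of ENSBTAG00000046358. This gene is listed under stress granules, which hold stalled mRNAs, under the catalytic step 2 spliceosome, under mRNA surveillance and under RNA degradation. After TMM it had 879, 627, 1056, 842 and 459 CPM on Day 2. It had 6929, 8809 and 6009 CPM in IVC, 6756, 4145 and 4814 in DRY, and 7269, 4645 and 5895 in LACT. The lowest Day-4 library, DRY 2, lay above the highest Day-2 library, and the log2 fold change was 3.01 ± 0.29 (SE, edgeR adjusted p = 4.4e-06). Its mean went from 773 ± 233 CPM (SD, n = 5) to 6272 ± 1727 (SD, n = 6), the highest Day-4 level of the whole set.

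ENSBTAG00000002528 is listed under translation initiation factors and under the eIF3 complex, which prepares the small ribosomal subunit for an mRNA. It had 171, 187, 197, 164 and 115 CPM after TMM on Day 2, among the lowest of the set. On Day 4 it had 1045, 988 and 1229 in IVC, 924, 972 and 852 in DRY, and 1175, 844 and 1003 in LACT. The days did not overlap, and the rise was 2.62 ± 0.22 (SE) on the log2 scale, or 6.13-fold (edgeR adjusted p = 1.7e-06).

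The largest falls were in genes that had been among the highest on Day 2. The minimum favours this, since a gene near it on Day 2 could not fall far and stay in the set. ENSBTAG00000013009 is listed under the spindle pole centrosome and under proteins joined to ubiquitin-like modifiers. It had 4984, 6899, 6023, 5827 and 4603 CPM after TMM on Day 2. It had 390, 289 and 541 in IVC, 443, 942 and 653 in DRY, and 630, 775 and 713 in LACT. The highest Day-4 library, DRY 2, lay far below the lowest Day-2 library, with a log2 fold change of -3.27 ± 0.26 (SE, edgeR adjusted p = 1.2e-06). ENSBTAG00000004912, listed under chromatin binding and ankyrin repeats, which are stretches that bind other proteins, had 5257, 6472, 5200, 6721 and 4194 CPM on Day 2. It had 573, 481 and 735 in IVC, 528, 906 and 665 in DRY, and 548, 674 and 619 in LACT. This was a log2 fold change of -3.11 ± 0.23 (SE, edgeR adjusted p = 7.2e-07). In this gene too no Day-4 library reached the range of Day 2.

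The steadiest genes were taken as those whose 95% interval had its farther bound closest to 0. ENSBTAG00000003399, which no term lists, combined a high level with a narrow interval. It had 1030, 1137, 1389, 1091 and 830 CPM after TMM on Day 2. On Day 4 it had 1040, 1143 and 1067 in IVC, 903, 1000 and 858 in DRY, and 1081, 1024 and 1057 in LACT. Every Day-4 library lay within the range of Day 2, and the log2 fold change was -0.08 with a 95% interval from -0.48 to 0.32. With library totals in place of TMM it passed the test as lower on Day 4, at -0.44. On those totals the days did not overlap, with 1096 to 1482 CPM on Day 2 and 758 to 1041 on Day 4. Its steadiness therefore depends on the scaling.

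ENSBTAG00000021653, listed under the armadillo-like helical fold, was at 1147, 1433, 1377, 1230 and 933 CPM on Day 2. It had 1535, 1823 and 1449 in IVC, 1334, 874 and 976 in DRY, and 1213, 1128 and 1175 in LACT. IVC libraries lay above every Day-2 library, whereas DRY and LACT fell within the range of Day 2 except for DRY 2, which was lower. The log2 fold change was 0.07 (95% interval -0.36 to 0.50). ENSBTAG00000003002 had the interval whose farther bound was closest to 0, from -0.47 to 0.45, at means of 290 CPM on Day 2 and 291 on Day 4. The estimates for these 3 genes changed sign between scalings, with a range from -0.39 to 0.23 for ENSBTAG00000003002.

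**Figure D4:**
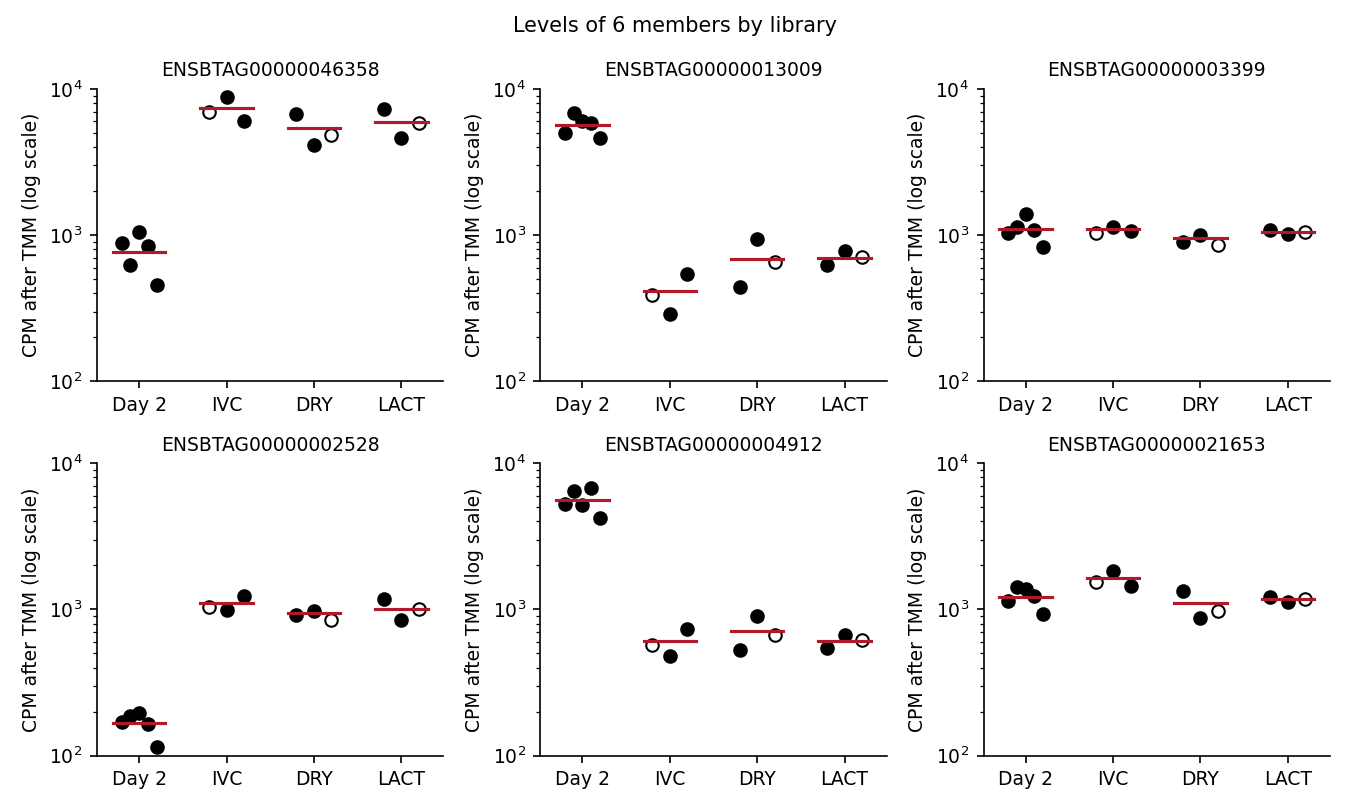
CPM after TMM (log scale) by library for 2 genes that rose (left), 2 that fell (middle) and 2 with narrow intervals around 0 (right). Filled points are libraries of the fit, open points the 3 libraries at the mean of their group, and lines the mean of the filled points. The left and middle genes do not overlap between Day 2 and Day 4, and the right ones do.

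The study's terms list 74 of the 167 genes and do not list the other 93. Of the listed genes 31 rose, 28 fell and 15 did not pass the test. Lists taken from the term tables are often shortened there, and the counts cover the identifiers shown. The study drew the lists from clusters formed on these samples, many of them by direction between the days. Counts of rises and falls over a list, and of its genes abundant on each day, are thus largely set in advance. They are descriptions. For scale only, 24.5% of all genes tested were higher on Day 4 and 29.2% lower.

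Genes listed under protein synthesis mainly rose, a direction by which the study had already grouped many of them. Terms named ribosome held 175 tested genes, of which 166 rose and 0 fell, with a median log2 fold change of 3.56, against -0.18 over all genes tested. The 5 members among them rose, with a median of 1.07 and a range from 1.01 to 2.58. Not all of them are ribosomal proteins. Listed were 1 protein of the large ribosomal subunit, which had means of 254 CPM on Day 2 and 518 on Day 4, and 1 gene of the small subunit, with 511 and 1068. The other 3 were listed under precursors or biogenesis of ribosomes. Terms named translation held 65 tested genes, of which 61 rose and 0 fell at a median of 3.14, and their 5 members rose at a median of 1.34. Few genes of these lists were abundant early. The minimum was reached in every Day-2 library by 5 genes under ribosome terms and in every Day-4 library by 61, and under translation terms by 6 and 30.

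Translation initiation factors, grouped after the values were seen, bring the ribosome to the start of an mRNA. Of 26 tested genes under such terms 23 rose and 0 fell, with a median log2 fold change of 2.11, beside 24.5% higher over all genes tested. The set held 4 of them, which rose, with log2 fold changes of 2.62, 1.85, 1.34 and 0.95. The second went from a mean of 281 CPM to 1017 and the third, which also has an armadillo-type fold, from 794 to 2014. The fourth, also listed as an RNA helicase, went from 178 to 343, and with library totals in place of TMM it did not pass the test, at 0.57.

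Genes listed under splicing, the removal of introns from new transcripts, showed a like pattern. Terms named spliceosome held 76 tested genes, of which 73 rose and 0 fell at a median of 2.67. They had 6 members, of which 5 rose, and the sixth, a regulator of alternative splicing, had means of 384 and 546 CPM and a log2 fold change of 0.50. With library totals in place of TMM 3 of the 6 rose. The fourth initiation factor above is also counted here, so the lists share genes and are not separate lines of evidence. The highest of these members after ENSBTAG00000046358 was a gene listed as a chaperone and as a part of the spliceosomal complex, which went from 511 to 1626 CPM.

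Assembly of ribosomes in the nucleolus was grouped from several terms after the values were seen. Of 123 tested genes 104 rose and 5 fell, with a median of 2.55, beside 24.5% higher over all genes tested. The group had 7 members, of which 6 rose, with a median of 1.39. Those listed under biogenesis of ribosomes are counted under the ribosome terms too. The member that did not pass the test, listed under the small-subunit processome, had 198 CPM on Day 2 and 310 on Day 4. A gene that binds snoRNAs, the guides of rRNA modification, was the highest of them and went from 663 to 1749 CPM.

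Genes of the spindle, the midbody, the centrosome and the cytoskeleton, again grouped after the values were seen, were mainly on the falling side. Among 235 tested genes 7 rose and 196 fell, with a median of -2.32, beside 29.2% lower over all genes tested. The 8 members comprised 7 that fell and 1 that rose. The falls ran from ENSBTAG00000013009 to a guanyl-nucleotide exchange factor that went from 765 to 435 CPM. A gene of the midbody and the spindle pole that binds microtubules went from 1605 to 267 CPM, and a gene that binds actin monomers from 1526 to 471. The 1 that rose, from 363 to 1749 CPM, is also listed under the nucleosome, the particle of DNA wound on histones. These counts were the same with DESeq2's size factors, with library totals, and with all 14 libraries. The lists had largely set the direction in advance, so nothing is read from that.

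Terms named cell cycle held 60 tested genes, of which 58 fell and 0 rose at a median of -2.03, beside 29.2% lower over all genes tested. Their 1 member is listed under the cell cortex and the cleavage furrow, which pinches the dividing cell in 2, and went from 1831 to 886 CPM. It is also listed under the midbody and the cytoskeleton, so it is counted in the group above too. Under cell cycle terms the minimum was reached in every Day-2 library by 31 genes and in every Day-4 library by 1. Terms named oxidative phosphorylation (29 genes tested, 28 rose) and proteasome (20 genes tested, 16 rose) held 0 members. Under oxidative phosphorylation terms 8 listed genes reached the minimum in every Day-2 library and 9 in every Day-4 library. Under proteasome terms these numbers were 0 and 1. The mitochondrial identifier block and the energy-related genes the study singled out had been left out of the set by its rule.

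Genes listed under chromatin and transcription went both ways. Under chromatin binding there were 4 members, of which 3 fell and 1 rose. Besides ENSBTAG00000004912, these included a ubiquitin ligase with a bromodomain, a fold that binds acetylated lysines, which went from 721 to 299 CPM, and a gene listed as both coactivator and corepressor, which went from 650 to 335. The 1 that rose, a gene that binds RNA polymerase, went from 184 to 370. Repressors were split evenly, with 2 that rose and 2 that fell. A second ubiquitin ligase, listed under DNA repair, had the fourth highest mean of Day 2, with 5887, 4267, 6412, 6678 and 3260 CPM. It fell to a Day-4 mean of 1946 ± 674 CPM (SD, n = 6), a log2 fold change of -1.47 ± 0.26 (SE). The 3 members under cGMP-PKG signalling, the pathway of the second messenger cGMP, also fell, by 0.88, 1.05 and 1.60 on the log2 scale. All 20 tested genes of that list fell, beside 29.2% lower over all genes tested. The second of these members is the cell cycle gene above, and the third is also listed under the spindle pole. They are therefore not a separate line of evidence.

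Each Day-4 group was also compared with Day 2. In IVC 44 genes rose and 29 fell, where the background was 37.4% (21.9% higher and 15.5% lower). In DRY 36 rose and 32 fell, with a background of 36% (19.5% higher and 16.5% lower). In LACT 34 rose and 39 fell, with a background of 36.7% (21.6% higher and 15.2% lower). These 3 comparisons share the Day-2 libraries and are not independent. ENSBTAG00000046358 rose on the log2 scale by 3.26 in IVC, by 2.82 in DRY and by 2.95 in LACT. ENSBTAG00000013009 fell by 3.77 in IVC, 3.03 in DRY and 3.01 in LACT.

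The comparison of the Day-4 groups asks whether culture or the cow's lactation changed these transcripts. A gene had to meet the minimum in every library of each group, which bounds how far the groups could differ. Nothing particular to the set is therefore read from the counts below or their distance to the background. Across IVC, DRY and LACT, edgeR called 0 of the 167 genes in the 6 libraries, with a background of 1.12% of 12133 genes. At an unadjusted p under 0.05 there were 5 genes, with a background of 8.52%, and the lowest adjusted p was 0.34. No pair of groups gave a call either. For DRY against LACT the background of calls was 0.668%, and 2 genes had an unadjusted p under 0.05 (background 8.37%). For LACT against IVC the background of calls was 0.429%, and 6 genes had such a p (background 6.51%). For DRY against IVC it was 0.734%, and 7 genes had such a p (background 10.2%). DESeq2, edgeR's likelihood ratio test and edgeR without a filter called 1 gene each across the groups, with backgrounds of 3.99%, 5.64% and 4.51%.

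Each group had 2 libraries in this fit. The median half-width of the 95% interval over the 167 genes was 0.80 to 0.81 on the log2 scale for each pair, or 1.75-fold. Smaller differences were not detectable for a typical gene. Calls were adjusted over all genes tested and the interval was not, so larger differences could be missed too. The interval lay inside a factor of 2 for 73 genes in DRY against LACT, 65 in LACT against IVC and 62 in DRY against IVC, with backgrounds of 2.66%, 2.18% and 2.25%. The minimum in every library shapes this contrast as well. Estimates beyond a factor of 2 numbered 0, 3 and 4. The median absolute difference was 0.20, 0.23 and 0.29 on the log2 scale.

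**Figure D5:**
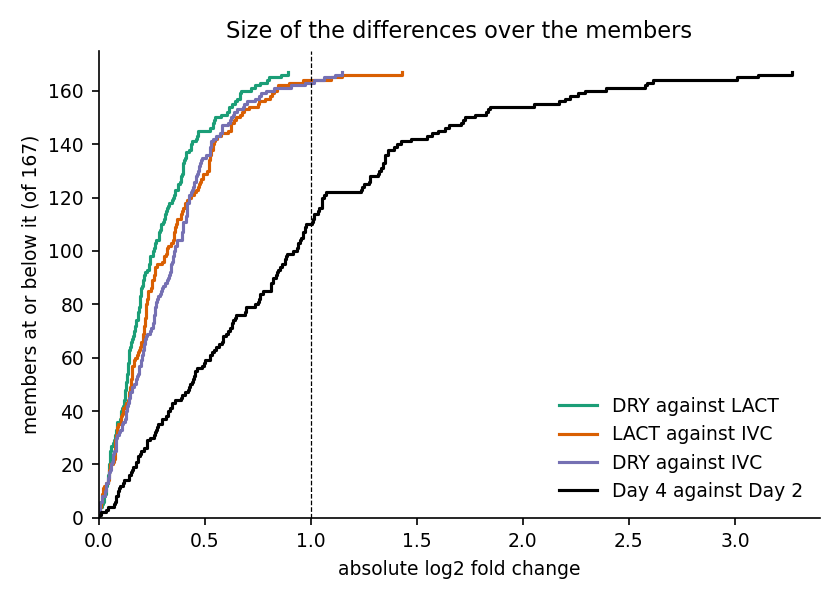
Number of the 167 genes (vertical) whose absolute log2 fold change (horizontal) is at or below a value, for the 3 pairs of Day-4 groups (6 libraries) and for Day 4 against Day 2 (11 libraries). The dashed line marks a factor of 2. The pairs reach at least 163 genes at that line, and Day 4 against Day 2 reaches 110. The minimum in every library bounds all of these differences.

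The lowest p across the groups was that of ENSBTAG00000011252, listed under cellular senescence and named here after its values were seen. Among the Day-4 libraries it had 452, 477 and 484 CPM after TMM in IVC, 185, 245 and 196 in DRY, and 260, 175 and 216 in LACT. IVC did not overlap with either oviduct group, and DRY and LACT overlapped. LACT was lower than IVC by a log2 fold change of -1.15 (edgeR adjusted p = 0.52), and DRY by -1.15 (adjusted p = 0.32). On Day 2 it varied from 219 to 843 CPM. DESeq2 and the likelihood ratio test called this gene. Without a filter edgeR called ENSBTAG00000015991, listed under endosomes and the Golgi apparatus, which had 877, 1384 and 530 CPM in IVC, 418, 701 and 518 in DRY, and 455, 262 and 353 in LACT. Its 2 independent IVC libraries differed more than 2-fold from each other.

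With all 9 Day-4 libraries, 25 of the 167 genes passed across the groups, with a background of 17.9%. Then 7 passed in DRY against LACT, 16 in LACT against IVC and 12 in DRY against IVC, with backgrounds of 9.32%, 8.47% and 12.1%. These counts rest on the 3 libraries at the mean of their group, which narrow the spread the test measures.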

How the data were processed

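RNA-seq was made from pools of 5 embryos. The authors deposited whole-number counts of reads per Ensembl gene without normalization. Per the labels and the study's methods, reads were trimmed (Trimmomatic 0.39), aligned to bosTau9 (STAR 2.7.0b) and assigned to genes (featureCounts, Subread 2.0.3). The libraries retained the strand of the RNA, per the study's methods, but the strand setting used for counting and the annotation's release are not given in the sources used here, so reads of overlapping and antisense genes may be shared. Such choices, and the mitochondrial share of a library, move every CPM.

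CPM for the selection came from library totals, and CPM shown beside tests were scaled with TMM over 14 libraries. Genes that reached 1 CPM in 2 or more libraries of a fit were tested with edgeR 4.0.16 (robust quasi-likelihood, 1 coefficient per group, R 4.3.3), with Benjamini-Hochberg adjustment over all genes tested. The 95% interval was taken from the F statistic of the fit and its degrees of freedom. Day 4 was the mean of its 3 groups in a fit of 11 libraries, and the Day-4 groups were compared in a fit of 6. Results were recomputed with all libraries, other scalings and filters, DESeq2 1.42.0, edgeR's likelihood ratio test, a stricter FDR of 0.01, a replicate block, other minimums and leaving out each library. The scripts were tested on simulated counts. Counting error is small at this depth: the Wilson 95% interval of the share of counts was at most 0.0121 percentage points to either side, and it covers counting error only.

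The genes, lists and tests were chosen with earlier results of these data known. Genes to be named were the 10 with the highest mean, the 8 with the largest rise and the 8 with the largest fall among called genes that did not overlap, the 8 with the smallest interval around 0, called genes between Day-4 groups, the 4 highest of each list, and those next to the minimum. Since no table used here pairs identifiers with symbols, 2 that rose and 2 that fell from Day 2 to Day 4, some steady genes, and 2 genes chosen after their values between Day-4 groups were seen are given by identifier, and others by terms or values. Lists by symbol, promoters and proteins were not analysed here. Term lists were read by identifier from the study's functional tables, some of which are shortened, and groups of several terms were formed after the values were seen.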

Additional observations from a re-analysis of the deposited data

Results flagged for a closer look

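Dixon's criterion was applied to 16 sets of 5 Day-2 values, of which chance alone flags about 1 in 20. It set apart 1 value, that of ENSBTAG00000003002 in Day2 replicate 3, at 404 CPM after TMM against 241 to 287 in the other Day-2 libraries. On library totals the value was 431 CPM, against 275 to 381 in the other Day-2 libraries, with Day2 5 at 381.

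In 3 of the 8 steady genes every IVC library of the fit lay above the Day-2 mean and every LACT library below it. LACT differed from IVC by -0.54 on the log2 scale for ENSBTAG00000003002, by -0.49 for ENSBTAG00000021653 and by -0.82 for ENSBTAG00000010386. In ENSBTAG00000010386, listed under endosomes, every DRY library of the fit lay below that mean too, at -0.68 from IVC. After TMM this gene had 423, 440 and 458 CPM in IVC, 324, 229 and 245 in DRY, and 263, 248 and 257 in LACT, around a Day-2 mean of 327. None of these differences passed the test between the groups (edgeR adjusted p = 0.88, 0.90 and 0.74 in the order given, and 0.54 for DRY).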

How the results depend on the processing

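The number of the 167 genes called on Day 4 against Day 2 (98), the numbers that rose and fell, and the number with an interval inside a factor of 2 (54) stayed within 1.5 times under every alternative. The calls ranged from 86 to 103 when 1 library was left out, with 43 to 61 higher and 38 to 50 lower, and 46 to 62 intervals inside a factor of 2. With the replicate number as a block there were 80 calls and 39 such intervals. Over all genes tested, that block gave 5326 calls of 13908. Without 1 Day-2 library, 6734 to 7145 genes were called of 13634 to 13791 tested. Deviations of same-numbered libraries from their group means correlated at -0.05 to 0.02. The 2 Day-4 libraries of a group mirror each other in such deviations. These values therefore cannot settle whether replicate numbers pair pools. The block called 1 gene in DRY against IVC.

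The median log2 fold change was 0.30 with DESeq2's size factors and with DESeq2's own test, -0.22 with library totals, 0.040 without a filter, 0.39 with 10 counts in every library and 0.022 without the 10 highest genes. It ranged from 0.024 to 0.27 when 1 library was left out, with the lowest value without Day2 5, 0.08 without Day2 1, and 0.22 to 0.27 without any 1 Day-4 library. The direction of this median is therefore set by the scaling. Its distance to the median of all genes, 0.32, was -0.04 with the replicate block, 0.13 without Day2 5 and 0.46 without DRY 1.

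Between Day-4 groups, all 9 libraries gave 25 calls across groups, 7 in DRY against LACT, 16 in LACT against IVC and 12 in DRY against IVC. Across groups no filter, the likelihood ratio test and DESeq2 gave 1 each, no filter gave 1 in LACT against IVC, and DESeq2 gave 1 in DRY against IVC. Leaving out 1 library gave 0 throughout, in a fit where the lone library of a group is assumed to vary like the others.

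The number of genes was 334 at a minimum of 100 CPM, 102 at 200, 44 at 300, and 370 with the mitochondrial block left out of the totals. With CPM after TMM it was 167, of which 142 were shared. After TMM the summed level was 10.4% of counts on Day 2, 9.76% in IVC, 9.31% in DRY and 8.83% in LACT, and with the block left out of the totals 14.3%, 15.3%, 15.5% and 14.9%. The fold changes of the 7 genes followed through the alternatives kept their calls, except ENSBTAG00000003399 with library totals (-0.44). The cause of these shifts was not tested.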
